A study of Mus musculus with 8 samples.

Results

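The 10 genes followed here are the epithelial adhesion genes Cdh1, Epcam and Cldn6, the mesenchymal cadherins Cdh2 and Cdh11, the cytoskeletal and matrix genes Vim and Fn1, and the transcription factor genes Snai2, Twist1 and Zeb2. They were taken by name, with no threshold on any measured value, and are 10 of the 55422 features counted in each library. Droplet single-cell RNA-seq (10x Genomics, 3′ ends) was run on chimaeric mouse embryos at E7.5 and E8.5. The Tet-TKO cells came from 1 line of embryonic stem cells on a mixed C57BL/6J and 129Sv background that lacks Tet1, Tet2 and Tet3, the enzymes that oxidise DNA methylation, and that carries an H2B-tdTomato reporter driven by the CAG promoter. These cells were injected into C57BL/6J blastocysts, which were transferred into CD1 recipients, and the dissociated embryos were pooled and sorted into tdTomato-positive Tet-TKO cells and tdTomato-negative WT host cells. The Tet-TKO fraction was sequenced as 4 libraries at E8.5 and as 1 at E7.5, and the WT host fraction as 2 and 1, so a test was possible only at the later stage. Genotype, strain background, passage through culture and the reporter all differ together between the sorted fractions and cannot be told apart.

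In an epithelium, cells are held together by E-cadherin (Cdh1) at adherens junctions, by claudins such as Cldn6 at tight junctions and by the adhesion molecule Epcam. In epithelial-mesenchymal transition, as at the primitive streak during gastrulation or when neural crest leaves the neural tube, cells lose these contacts, take up N-cadherin (Cdh2) or cadherin 11 (Cdh11), build vimentin filaments (Vim) and move on a matrix rich in fibronectin (Fn1). Transcription factors of the Snail (Snai2), Twist (Twist1) and Zeb (Zeb2) families drive this change. Those of the Snail and Zeb families act in part by binding the E-box letters CAGGTG in the promoters of epithelial genes.

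The promoters of 5 of the 10 genes were at hand from RefSeq (GRCm38.p6). They are shown because these E-box letters link Snai2 and Zeb2 to the epithelial members of the set. The search covered the 250 bases before the annotated start for CAGGTG on both strands, which reads CACCTG on the other strand. It also covered CAGATG (or CATCTG) and CATATG, counted as Twist letters, with no overlap between motifs. The Epcam window held the first motif at 187 and at 19 bases before the start, and the Cldn6 window held it at 93 bases before the start that RefSeq gives. The GENCODE annotation starts Cldn6 upstream of that, so by the gene position given below this E-box lies within the gene, in the 5′ UTR of an annotated transcript. The windows of Vim, Twist1 and Zeb2 (4 annotated starts) held none of these letters. In capitals are the E-box letters:
Epcam promoter, chr17:87635729-87635978, plus strand: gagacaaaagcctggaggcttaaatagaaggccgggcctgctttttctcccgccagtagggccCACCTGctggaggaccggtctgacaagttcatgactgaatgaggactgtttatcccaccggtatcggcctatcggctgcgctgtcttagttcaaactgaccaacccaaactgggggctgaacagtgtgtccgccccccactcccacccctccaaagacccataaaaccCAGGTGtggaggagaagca
Cldn6 E-box with its flanks, chr17:23679262-23679287, plus strand: gaaacgcacgCAGGTGgctatcgccg
The first motif occurred in 5657 of 32851 promoters of this length (17.2%), CAGATG in 14.4% and CATATG in 3.46%, so its presence is a description of these letters and not evidence of binding.

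The 8 libraries held 1012 to 9552 cells after filtering and 65601218 to 136982886 unique molecular identifiers (UMIs), with a median of 12176 to 68704 UMIs per cell. Levels are given as CPM, the UMIs of a gene per 1000000 UMIs of all kept cells of a library or of the cells of one class in it, and since only 3′ ends were counted they are compared between samples and not between genes. At least 1 tdTomato UMI was found in 60.8–87.2% of cells of the Tet-TKO libraries and in 0.532–0.841% of cells of the WT host libraries. At E8.5 Tet1 still gave 9.93–20.9 CPM in Tet-TKO libraries against 20.4–22.5 in WT host. Tet2 gave 5.55–10.5 against 4.63–4.67 CPM and Tet3 22.5–37.5 against 23.1–23.2, so these 3′ counts do not check the labels. Tet-TKO libraries 1 and 2, and likewise 3 and 4, resembled each other far more than they did the other pair (a chi-square over genes of 14.2 and 16.1 per degree of freedom, against 159–171), and the p-values therefore measure the spread between libraries that may in part be technical. Clusters were named by marker genes with the suffix "-like" or left as numbers, and the 10 genes were not used in clustering.

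The order of levels in WT host cells at E8.5 covers 30 of the 32 classes. Cluster 32, with leading genes of ExE ectoderm and of primordial germ cells mixed, was left out, as were the parietal endoderm-like cells, too few in 1 library. In cluster 32 Cdh1 stood at 73.0 and 70.9 CPM, Epcam at 466 and 528 and Cldn6 at 154 and 136 CPM, so its Cdh1 level lay within the range of the gut-like cells. Among the classes kept, the 3 epithelial adhesion genes shared their sites of highest level. Cdh1 (chr8:106603351-106670246, plus strand, GRCm38) was highest in gut-like cells, at 62.6 and 74.6 CPM in the 2 libraries, and its next classes, notochord-like cells and cluster 16, overlapped with these values. Cluster 16 is an endodermal cluster led by Nepn, Gpx2 and Upk3a, left unnamed. Epcam (chr17:87635979-87651129, plus strand) reached 1051 and 1207 CPM in cluster 16, 797 and 937 CPM in gut-like and 573 and 579 CPM in surface ectoderm-like cells, and these 3 classes did not overlap. Cldn6 (chr17:23679249-23682446, plus strand) was highest in cluster 16 (340 and 390 CPM), followed by yolk sac endoderm-like (322 and 324) and gut-like cells (252 and 302), also without overlap. At the other end, Epcam averaged 3.35 CPM in blood progenitor-like cells, where Cdh1 averaged 0.384 CPM.

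The mesenchymal cadherins followed patterns of their own. Cdh2 (chr18:16588877-16809246, minus strand) was highest in notochord-like cells, at 246 and 277 CPM, where Cdh1 was also near its maximum (44.8 and 77.7 CPM). Next came cluster 34, a group of cells with few UMIs, and cardiomyocyte-like cells (143 and 151 CPM), where N-cadherin joins heart muscle cells. Cdh11 (chr8:102632095-102785642, minus strand) was highest in pharyngeal mesoderm-like (126 and 151 CPM), mesenchyme-like (118 and 153) and somitic mesoderm-like cells (131 and 134), which overlapped with each other and lay above the ExE mesoderm-like cells (81.3 and 108). Both cadherins were lowest in blood progenitor-like cells, at 1.12 and 0.351 CPM.

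Vim (chr2:13573927-13582826, plus strand) fell in separate steps from endothelium-like (1453 and 1517 CPM) to mesenchyme-like (1128 and 1152) and lateral plate mesoderm-like cells (806 and 822), and was lowest in yolk sac endoderm-like (22.4) and blood progenitor-like cells (7.35). Fn1 (chr1:71585520-71653200, minus strand) was highest in cluster 34 (481 and 623 CPM), haematoendothelial progenitor-like cells (504 and 524) and cluster 29, another group with few UMIs (306 and 456), and lowest in neural crest-like (23.6) and spinal cord-like cells (21.9). Snai2 (chr16:14705852-14709385, plus strand), which encodes Slug, stood apart in mesenchyme-like cells at 122 and 127 CPM. Its next classes, lateral plate mesoderm-like (43.7 and 49.8) and ExE mesoderm-like cells (41.0 and 47.1), overlapped.

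Twist1 (chr12:33957671-33959829, plus strand) was highest in lateral plate mesoderm-like cells, at 599 and 619 CPM, and then in allantois-like (410 and 426) and pharyngeal mesoderm-like cells (349 and 447), which overlapped. It was lowest in NMP and caudal epiblast-like cells (5.58 and 9.63 CPM), which hold neuromesodermal progenitors, and in blood progenitor-like cells (2.21 and 2.82). Zeb2 (chr2:44983632-45117395, minus strand) was highest in cluster 34, the group with few UMIs, but at values that differed widely (90.0 and 217 CPM). Next came cluster 35, led by Calca, Nkx2-9, Nkx6-1 and Foxa2 (126 and 132 CPM), cluster 20, with the hindbrain genes Crabp1 and Egr2 among its leading genes (124 and 128), and spinal cord-like cells (121 and 127), each of which overlapped with its neighbour. It was lowest in 2 of the classes with the most Epcam, cluster 16 (4.14 and 4.74 CPM) and surface ectoderm-like cells (4.70 and 5.06).

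**Figure D1:**
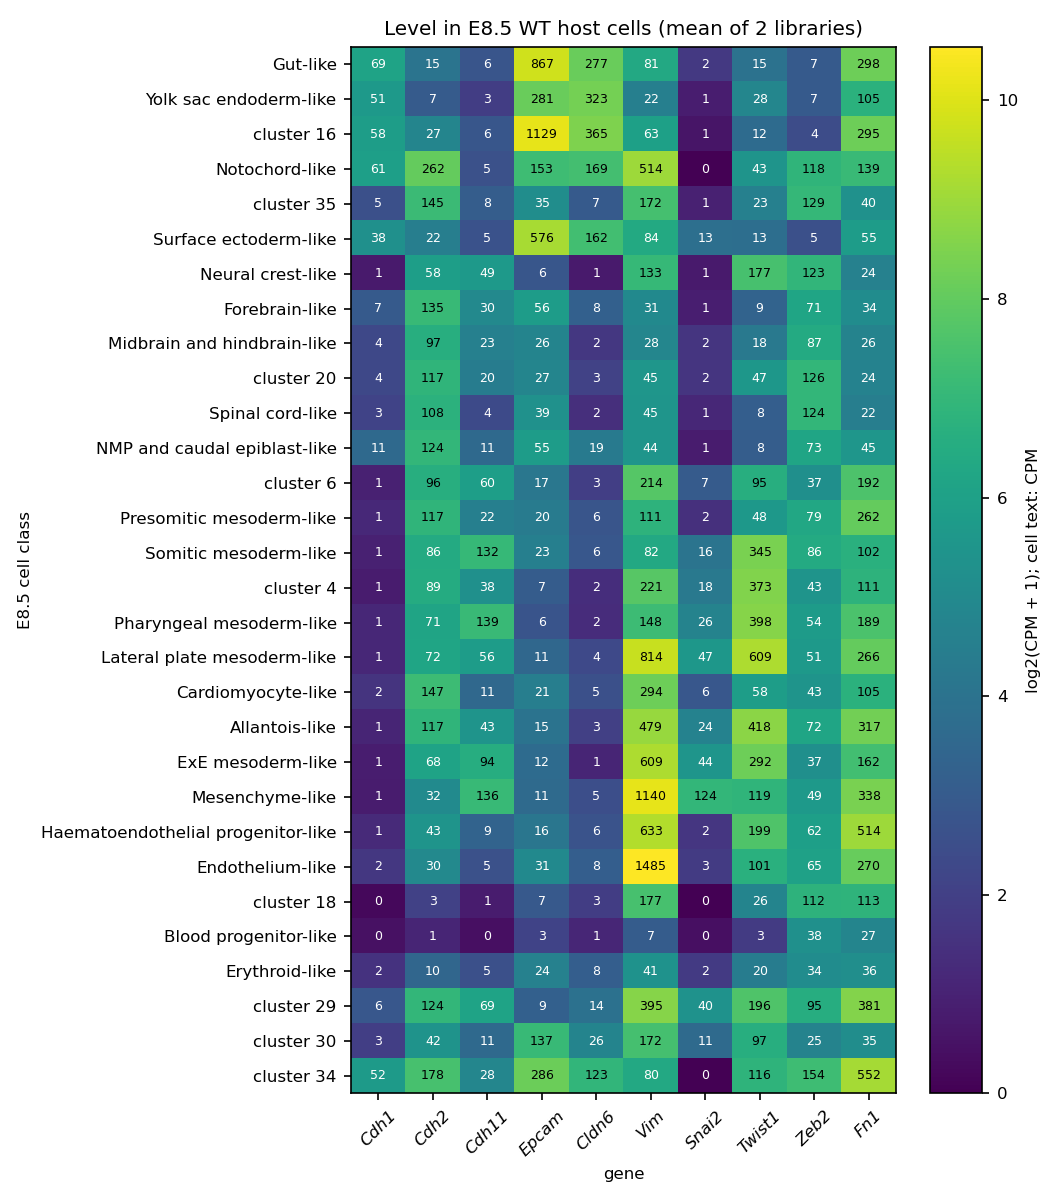
Level of the 10 genes in 30 classes of E8.5 WT host cells. Rows are classes, columns are genes, the colour is log2(CPM + 1) and the printed value is the mean CPM of the 2 WT host libraries; Epcam, Cldn6 and Cdh1 share their highest rows, and Zeb2 is lowest in cluster 16 and surface ectoderm-like cells.

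Over 31 of the 32 classes, with cluster 32 left out for its mixed leading genes, the patterns of the 3 epithelial genes on the log2(CPM + 1) scale were alike, with a Pearson r of 0.94 for Cdh1 and Cldn6, 0.91 for Epcam and Cldn6 and 0.90 for Cdh1 and Epcam. Cdh1 and Cdh2 had an r of 0.04, and Epcam and Zeb2 an r of −0.63. Among the mesenchymal genes r was 0.74 for Cdh11 and Twist1, 0.70 for Cdh11 and Snai2 and 0.66 for Snai2 and Twist1, but 0.16 for Cdh2 and Snai2, 0.11 for Vim and Zeb2, −0.05 for Zeb2 and Fn1 and −0.08 for Snai2 and Zeb2. Among 9449 genes, those most like Cdh1 were Cldn6, Fermt1 and Spint2, those most like Epcam were Esrp1, Marveld2 and Cldn6, and those most like Cldn6 were St14, Cldn7 and Cdh1 (r of 0.91 to 0.96). Those most like Twist1 were Tmem119, Dact3 and its paralogue Twist2 (r of 0.85 to 0.88). Snai2 was most like Pcolce, Colec11 and Svep1, Zeb2 like Spire1, Nes and Ahi1, Vim like Cald1, Arl8a and Sept7, Fn1 like Polg, Epb41l2 and Sptbn1, Cdh2 like Lrrc49, Gjc1 and Tenm4, and Cdh11 like Clmp, Tmem45a and Col26a1 (r of 0.75 to 0.89). These are descriptions over classes that share 2 libraries and their depth.

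The first comparison asks how the whole sorted fractions differed at E8.5. The 3 transcription factors came first. Snai2 stood at 25.4, 25.9, 24.3 and 24.8 CPM in the 4 Tet-TKO libraries and at 10.0 and 9.87 CPM in the 2 WT host libraries. All Tet-TKO libraries lay above both WT host libraries, and the rise was 1.25 on the log2 scale (SE 0.12, edgeR quasi-likelihood adjusted p = 0.00291). Twist1 stood at 211, 209, 177 and 175 CPM against 97.9 and 98.6 CPM, again without overlap, with a log2 fold change of 0.90 (SE 0.17, adjusted p = 0.0209). Zeb2 stood at 47.5, 56.1, 67.0 and 68.5 CPM against 43.4 and 54.1, and since library 1 of the Tet-TKO cells lay between the WT host values the groups overlapped (log2 fold change 0.20, SE 0.14, adjusted p = 0.416). Over 6781 genes with at least 10 CPM in every library, Tet-TKO libraries 1 and 2 deviated from their group mean with WT host library 1 (r of 0.45 and 0.21), and libraries 3 and 4 with WT host library 2 (0.33 and 0.33). With 2 WT host libraries the deviations of these are mirror images, and those of the Tet-TKO libraries cancel out. The match of libraries 3 and 4 is therefore not separate support for that of libraries 1 and 2. The labels give no batch that these sets could be read from, so no test was made within them. Side by side, Zeb2 in Tet-TKO libraries 1 and 2 lay above WT host library 1, and in libraries 3 and 4 above WT host library 2. The sets were drawn from these same counts, so this order is a description and adds no support for a difference. Without WT host library 1 or 2 its log2 fold change was 0.02 or 0.39.

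The mesenchymal cadherins and effectors were also higher in every Tet-TKO library. Cdh2 stood at 71.4, 81.2, 112 and 118 CPM against 48.3 and 56.9 in WT host, a log2 fold change of 0.76 (SE 0.18, adjusted p = 0.0423). Its Tet-TKO values fell into the same 2 pairs as the libraries did over all genes. Cdh11 stood at 38.6, 38.9, 42.7 and 43.8 CPM against 22.2 and 27.5 (log2 fold change 0.63, SE 0.12, adjusted p = 0.0187). Vim stood at 396, 354, 356 and 324 CPM against 223 and 179 (0.75, SE 0.16, adjusted p = 0.0324), and Fn1 at 179, 174, 198 and 199 CPM against 146 and 115 (0.44, SE 0.11, adjusted p = 0.0489). Without WT host library 2, which left 1 library in that group, the Fn1 log2 fold change was 0.29.

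The epithelial genes lay the other way, with a wide gap between the 2 WT host libraries, of which the first was the higher for all 3. Cldn6 stood at 29.9, 19.9, 31.6 and 25.6 CPM against 81.2 and 36.3 in WT host, below both in 4 of 4 libraries, with a log2 fold change of −1.21 that missed the threshold (SE 0.30, adjusted p = 0.0503). Epcam stood at 116, 79.7, 91.3 and 73.4 CPM against 198 and 100.1, below both in 3 of 4 libraries (−0.79, SE 0.30, adjusted p = 0.153). Within the sets of libraries that deviated together, Epcam in Tet-TKO libraries 1 and 2 lay below WT host library 1, and in libraries 3 and 4 below WT host library 2. Since these sets were drawn from the same counts, that order adds no support for a difference. Cdh1 stood at 9.72, 5.80, 10.4 and 9.40 CPM against 18.2 and 8.17, and the groups overlapped (−0.67, SE 0.33, adjusted p = 0.246). Within the same sets Cdh1 had no common direction. In Tet-TKO libraries 1 and 2 it lay below WT host library 1, but in libraries 3 and 4 above WT host library 2. Without WT host library 1 the log2 fold changes were −0.56 for Cldn6, −0.25 for Epcam and −0.01 for Cdh1, and without WT host library 2 they were −1.67, −1.19 and −1.12.

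**Figure D2:**
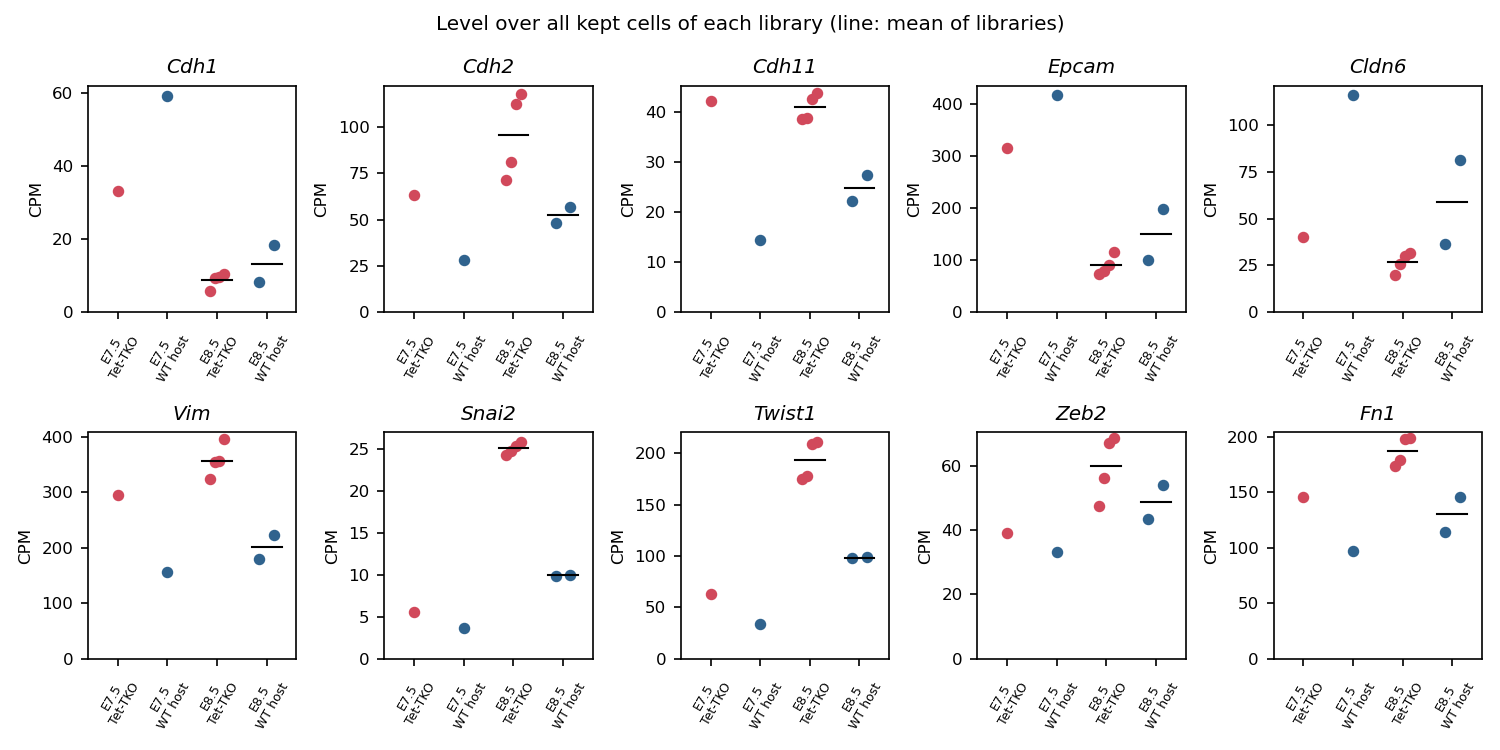
CPM over all kept cells of each library, one panel per gene. Points are libraries in the groups E7.5 Tet-TKO, E7.5 WT host, E8.5 Tet-TKO and E8.5 WT host, the line is the mean, and each axis starts at 0; at E8.5 the 4 Tet-TKO points of Snai2 (24.3 to 25.9 CPM) lie above the 2 WT host points (9.87 and 10.0), and those of Cdh1 overlap with them.

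To count as called, a gene needed an adjusted p under 0.01 and a log2 fold change of 1 or more in size. By this rule 1 of the 10 genes, Snai2, was called, where 2.65% of 21075 genes tested were called in either direction, 0.588% with the higher and 2.06% with the lower level in Tet-TKO cells. At an adjusted p under 0.05 alone, 6 of the 10 were higher, against 3.74% of all genes. The 4 Tet-TKO libraries lay above both WT host libraries for 6 of the 10, against 23.1% of all genes, and below both for 1, against 17.9%. The median log2 fold change over all genes was 0.02. The Snai2 call rested on both WT host libraries, since without 1 of them that group had no spread of its own. With any 1 library left out the Snai2 log2 fold change was 1.21 to 1.30. The call also rested on counting the alike Tet-TKO libraries as 4. With each pair of them summed the edgeR adjusted p of Snai2 was 0.0287.

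The sorted fractions differed in which cells they held, and in sums over a whole fraction more cells of a type and more RNA per cell cannot be told apart. Erythroid-like cells made up 0.128–0.791% of the Tet-TKO libraries and 9.79% and 18.5% of the WT host libraries. Extraembryonic-like cells made up 0.0209–0.434% against 7.08% and 2.60%, and gut-like cells, among the highest in Epcam, Cldn6 and Cdh1, 1.06–3.55% against 8.34% and 3.47%. ExE mesoderm-like cells, which are high in Snai2 and Cdh11, made up 5.42–9.11% against 1.45% and 0.996%. Allantois-like cells, which are high in Twist1, made up 16.3%, 17.6%, 7.94% and 6.72% of Tet-TKO libraries 1 to 4, against 7.93% and 4.69%. When each library was weighted to the same makeup over the 24 classes present in all 6, Snai2 stood at 22.0, 23.8, 24.4 and 25.9 CPM against 17.4 and 17.1, and Twist1 at 180, 185, 181 and 184 CPM against 155 and 166. These 2 genes were the only members of the 10 with all Tet-TKO libraries on one side of both WT host libraries at this makeup. The share of all genes that did so was not computed at this makeup. In whole fractions 23.1% of all genes lay above both and 17.9% below both, so the count does not set these members apart from other genes. The log2 ratios of mean levels of Snai2 and Twist1 were 0.48 and 0.19, below their values of 1.25 and 0.90 over whole fractions. The log2 ratio at fixed makeup was −0.09 for Cldn6, −0.13 for Epcam and 0.36 for Cdh1, each with overlapping libraries. With 4 against 2 libraries an exact permutation test cannot reach 0.05, so none was run.

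The second comparison was made within classes, on counts summed per class and library. Of the 290 pairs of a gene and one of 29 classes, 240 had counts enough for a test, and 6 were called, 5 with the higher and 1 with the lower level in Tet-TKO cells. Over all genes, 0.584% of 284405 such pairs were called, 0.242% higher and 0.342% lower. At an adjusted p under 0.05 alone, 11 member pairs were higher and 1 lower, against 0.684% and 0.931% of all pairs. Of the 6 calls, 4 were in erythroid-like cells, where 0.837% of all genes tested were called higher, 1 was Twist1 in midbrain and hindbrain-like cells, where 0.248% were, and 1 was Fn1 in cluster 16, where 0.582% were called lower.

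**Figure D3:**
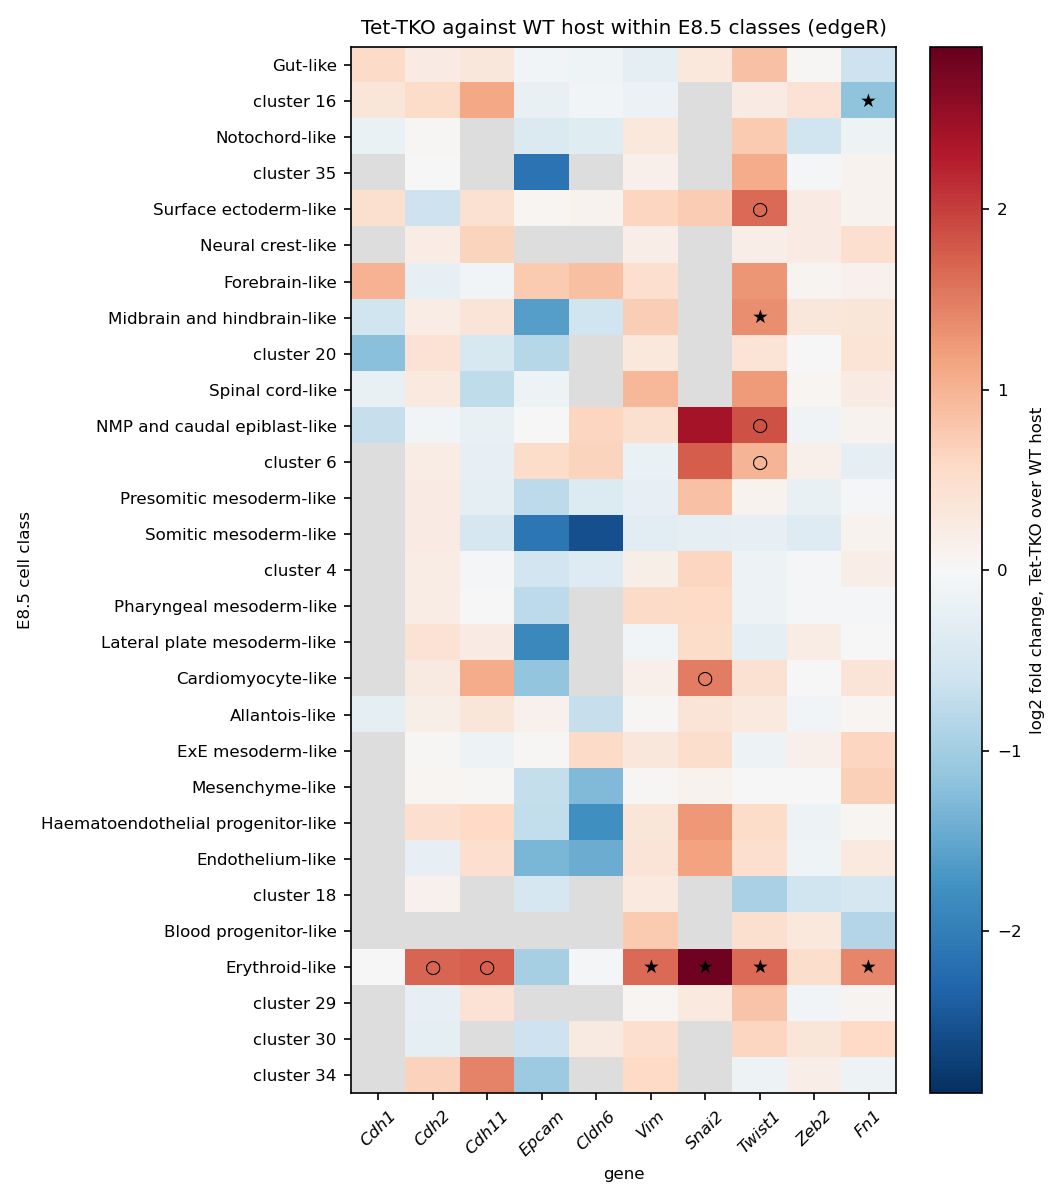
edgeR log2 fold change of Tet-TKO over WT host for the 10 genes in 29 classes at E8.5. Rows are classes, columns are genes, red is higher and blue lower in Tet-TKO cells, grey pairs were not tested, a star marks the 6 called pairs and a circle an adjusted p under 0.05 without a call; Twist1 and Snai2 are red in most rows, and the blue star is Fn1 in cluster 16.

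Twist1 was the gene with the most class-wise differences. In midbrain and hindbrain-like cells it stood at 48.4, 49.0, 44.3 and 42.1 CPM in the Tet-TKO libraries and at 16.8 and 19.4 CPM in the WT host libraries, which did not overlap, and rose by 1.35 on the log2 scale (SE 0.17, edgeR adjusted p = 0.0045). That call was lost without Tet-TKO library 2 (edgeR adjusted p = 0.0116) and with the alike libraries summed into pairs (0.0302). It also rested on both WT host libraries, since without 1 of them that group had no spread of its own. With any 1 library left out the log2 fold change was 1.27 to 1.44. In NMP and caudal epiblast-like cells Twist1 stood at 20.2, 27.8, 29.1 and 31.4 CPM against 5.58 and 9.63. The log2 fold change there was 1.85 (SE 0.26), and its adjusted p of 0.0126 passed 0.05 but not the threshold of a call. Surface ectoderm-like cells differed in makeup, with 51.4% of the Tet-TKO and 64.8% of the WT host cells in cluster 10. Cluster 23 held 33.0% and 19.8%, and cluster 31 held 15.6% and 15.4%. Over this whole class Twist1 stood at 43.3, 47.8, 28.9 and 40.2 CPM against 11.5 and 14.5 (1.65, SE 0.25, adjusted p = 0.0202). In cluster 6, a caudal mesodermal cluster led by Cdx4, Hoxd1, Mesp1 and Mixl1, it stood at 187, 180, 181 and 206 CPM against 93.5 and 96.9 (0.99, SE 0.12, adjusted p = 0.00655), just under the fold that a call needs.

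Where Twist1 was high in WT host cells the genotypes lay close. In lateral plate mesoderm-like cells the Tet-TKO libraries held 580, 558, 516 and 432 CPM, below both WT host values of 599 and 619, with an adjusted p of 0.596. In pharyngeal mesoderm-like cells they held 314, 401, 393 and 305 CPM against 349 and 447, which overlapped (edgeR adjusted p = 0.808). In allantois-like cells they held 501, 473, 510 and 553 CPM, above both WT host values of 410 and 426 (edgeR adjusted p = 0.267). Over the 29 classes Twist1 had the higher level in Tet-TKO cells in 22, with a median log2 fold change of 0.46, where 51.5% of all gene and class pairs lay above 0 and their median was 0.01. In the 15 classes at or below its median level of 77.2 CPM over all libraries, 14 were higher, with a median of 0.84. In the 14 classes above it, 8 were higher, with a median of 0.11. Split in the same way, other members also had the larger median in their classes of low level. The medians below and above were 1.17 and 0.52 for Snai2, 0.46 and 0.23 for Vim, and 0.41 and 0.03 for Cdh11. They were 0.14 and 0.03 for Fn1, −0.76 and −0.21 for Epcam, and −0.67 and −0.06 for Cldn6. Those of Cdh2 were alike (0.208 and 0.215), and the sign changed for Zeb2 (0.15 and −0.07) and Cdh1 (−0.43 and 0.46). Each low-level median had the sign of that gene's log2 fold change over whole fractions. It was near that value for Twist1 (0.90), Snai2 (1.25) and Epcam (−0.79), but not for Cdh2 (0.76) and Fn1 (0.44). The part of free RNA in this, taken up below, was not tested. The filter on low counts left 17 classes for Snai2, 18 for Cldn6 and 11 for Cdh1. It keeps a low class more readily where 1 genotype is high.

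**Figure D4:**
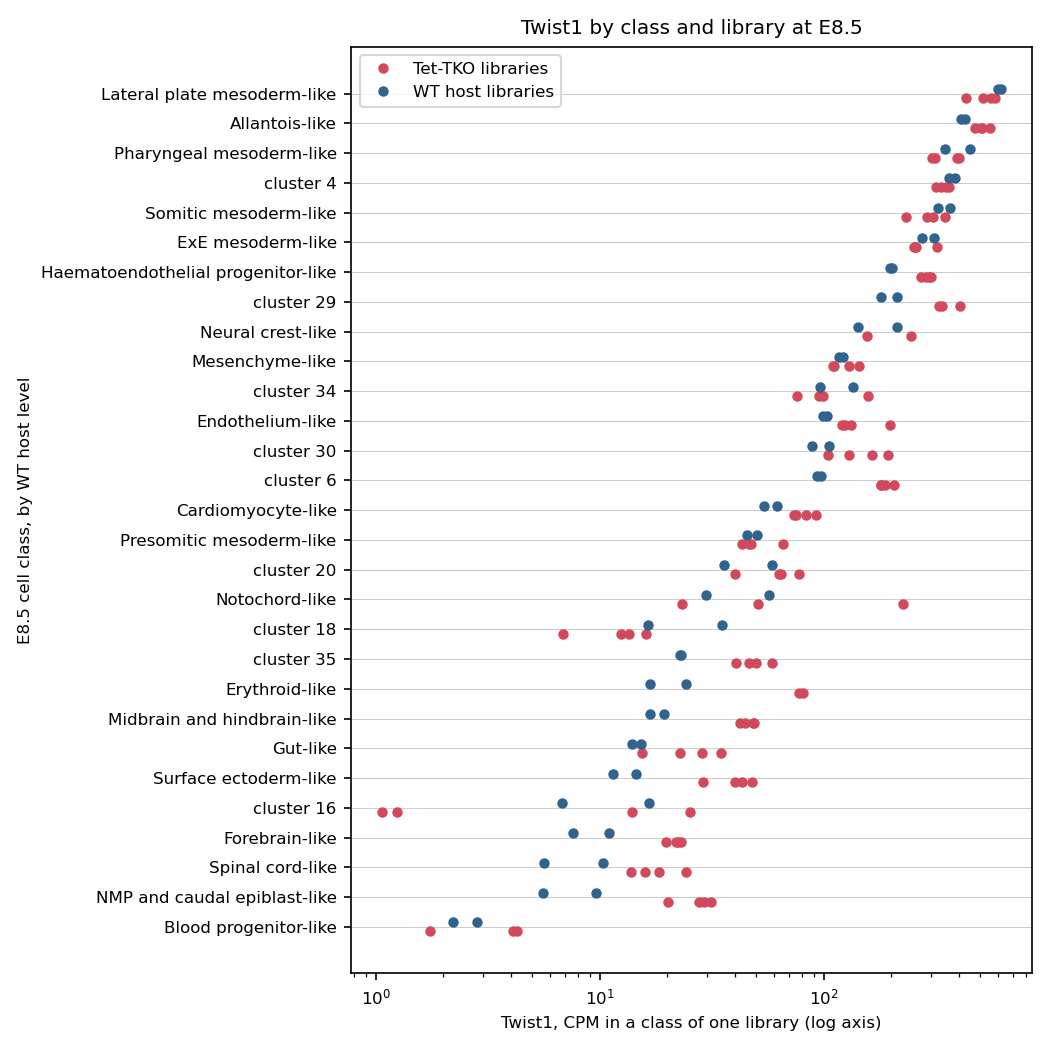
Twist1 in E8.5 classes, ordered by their WT host level. Each point is the CPM of one library in one class, on a log axis, coloured by genotype. The points of the genotypes are apart in midbrain and hindbrain-like cells (42.1 to 49.0 against 16.8 and 19.4 CPM). At the top, Tet-TKO points lie below those of WT host in lateral plate mesoderm-like cells and above them in allantois-like cells, and they overlap in pharyngeal mesoderm-like cells.

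Other values were set beside the Twist1 differences. Free RNA from lysed cells adds UMIs to every droplet in the same proportion as in the library, so the Twist1 level of a class was read against that of the erythroid markers. In midbrain and hindbrain-like cells Twist1 stood at 22.9–24.95% of its whole-library level in Tet-TKO and 17.1–19.7% in WT host libraries, while the erythroid marker sum stood at 0.871–2.64% and 2.86–3.07% of its own. In NMP and caudal epiblast-like cells the Twist1 shares were 9.56–17.99% and 5.70–9.76%, beside 1.25–3.09% and 3.14–3.26% for the erythroid markers. In surface ectoderm-like cells the Twist1 shares were 16.3–23.0% and 11.8–14.7%, which did not overlap. In cluster 6 they were 86.1–118% and 95.5–98.2%, which did. The WT host Twist1 levels of midbrain and hindbrain-like (16.8 and 19.4 CPM) and surface ectoderm-like cells (11.5 and 14.5) can be set beside those of WT host erythroid-like cells (24.2 and 16.8) and blood progenitor-like cells (2.82 and 2.21), in both of which Twist1 should be absent. The midbrain and hindbrain-like level was above that of erythroid-like cells in library 2 and below it in library 1, the surface ectoderm-like level was below it in both, and both classes lay above the blood progenitor-like cells. The summed level of 8 mesenchyme markers in midbrain and hindbrain-like cells was 109–155 CPM in Tet-TKO and 106 and 117 CPM in WT host libraries, that of ExE mesoderm markers 97.9–151 against 65.7 and 72.9, and that of neural crest markers 594–816 against 449 and 648. In NMP and caudal epiblast-like cells the mesenchyme markers stood at 156–248 against 215 and 219 CPM and the class's own markers at 1710–2110 against 2591 and 2318 CPM. In surface ectoderm-like cells the neural crest markers stood at 274–427 against 603 and 695 CPM and the mesenchyme markers at 431–1349 against 1159 and 1080 CPM. In cluster 6 the presomitic mesoderm markers stood at 221–290.0 against 164 and 105 CPM. The part of these markers in the Twist1 result was not tested. With computed doublets removed, the Twist1 adjusted p was 0.00423 in midbrain and hindbrain-like, 0.00566 in NMP and caudal epiblast-like and 0.00791 in surface ectoderm-like cells, and the log2 fold changes were 1.44, 2.21 and 1.74.

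The share of cells with a Twist1 UMI was also larger in the Tet-TKO libraries. Each cell was thinned to 5000 UMIs, since depth differed between libraries, which left 18945 Tet-TKO and 16021 WT host cells at E8.5 (median UMIs before thinning 16444 and 14831). A Twist1 UMI was then found in 44.1%, 43.8%, 39.0% and 37.5% of cells in the Tet-TKO libraries and in 22.9% and 22.4% in the WT host libraries. Without thinning it was found in 62.8% and 32.6% of cells of the 2 genotypes. In midbrain and hindbrain-like cells the thinned share was 19.4% of 717 Tet-TKO cells (exact 95% binomial interval 16.6–22.5%) and 7.12% of 730 WT host cells (5.37–9.24%), and unthinned 40.8% and 16.1%. Median UMIs before thinning were 15352 and 13756 in these cells. In blood progenitor-like cells, which should lack Twist1, it was 1 of 230 cells (0.435%) and 9 of 1343 cells (0.670%), with median UMIs of 19972 and 18582, and unthinned 6.56% and 4.14%. In erythroid-like cells, which should lack it too, it was 18 of 64 (28.1%) and 109 of 2310 cells (4.72%), at median UMIs of 25590 and 17272, and the Tet-TKO value is from a class where most cells were computed doublets. In NMP and caudal epiblast-like cells the Twist1 share was 10.7% and 2.92%, and the WT host value there lies between those of blood progenitor-like and erythroid-like cells, so expression of Twist1 in these WT host cells cannot be told apart from background. These intervals cover counting error only.

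Snai2 was tested in 17 classes and lay higher in Tet-TKO cells in 16 of them, with a median log2 fold change of 0.62. In mesenchyme-like cells, its highest class, it stood at 132, 124, 141 and 151 CPM against 127 and 122, which overlapped (adjusted p = 0.802). Different clusters held most of this class, with 70.8% of its Tet-TKO and 30.7% of its WT host cells in cluster 19 and the rest in cluster 24. In lateral plate mesoderm-like cells it stood at 73.2, 75.3, 76.4 and 52.2 CPM against 43.7 and 49.8, and in ExE mesoderm-like cells at 52.2, 52.9, 76.4 and 80.9 CPM against 47.1 and 41.0. Neither passed (adjusted p = 0.361 and 0.542), although no library of one genotype overlapped with the other. In cardiomyocyte-like cells Snai2 stood at 16.6, 22.0, 18.2 and 15.7 CPM against 5.90 and 6.61 (log2 fold change 1.48, SE 0.28, edgeR adjusted p = 0.0297). Beside it, the 8 cardiomyocyte markers summed to 14862–24276 CPM in Tet-TKO and 30073 and 31542 CPM in WT host cells. Snai2 there stood at 63.3–85.1% and 58.7–66.9% of its whole-library level, and the part of cell makeup or free RNA in its rise was not tested.

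Fn1 in cluster 16 was the one member called lower. It stood at 115, 131, 124 and 129 CPM in Tet-TKO and at 307 and 282 CPM in WT host libraries, and fell by 1.18 on the log2 scale (SE 0.13, edgeR adjusted p = 0.000946). The adjusted p was 0.00897 with the alike libraries summed. With any 1 library left out the log2 fold change was −1.24 to −1.12. The call rested on both WT host libraries, since without 1 of them that group had no spread of its own. The 8 yolk sac endoderm markers in the same cells summed to 101–151 CPM in Tet-TKO libraries, with up to 5 of them at 0, and to 493 and 413 CPM in WT host libraries, with all detected. Gut markers summed to 628–2307 against 2546 and 1523 CPM, and notochord markers to 149–180.5 against 229 and 214 CPM. A tdTomato UMI was found in 70.9% of the 333 Tet-TKO cells of the cluster. In gut-like cells Epcam stood at 791, 813, 775 and 834 CPM against 937 and 797, and Cldn6 at 267, 242, 230 and 243 CPM against 302 and 252. Cdh1 stood at 79.9, 77.6, 111 and 136 CPM against 74.6 and 62.6 in gut-like cells, higher in all Tet-TKO libraries, with an adjusted p of 0.288. In surface ectoderm-like cells Epcam stood at 596, 585, 631 and 582 CPM against 573 and 579 (log2 fold change 0.06, SE 0.10, adjusted p = 0.827).

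The 4 calls in erythroid-like cells rested on few Tet-TKO cells. Only Tet-TKO libraries 2 and 3 had the 10 cells that a sum needed, with 51 and 13 cells, against 809 and 1675 in WT host. The class was also made of different clusters, with 58.0% of its Tet-TKO and 17.4% of its WT host cells in cluster 27, and 17.3% and 76.6% in cluster 1. There Snai2 stood at 23.9 and 17.6 CPM against 2.75 and 2.11 (log2 fold change 2.81, SE 0.35, adjusted p = 0.00412), and Twist1 at 77.5 and 80.6 CPM against 24.2 and 16.8 (1.63, SE 0.20, adjusted p = 0.00412). Vim stood at 197 and 114 CPM against 47.1 and 34.4 (1.65, SE 0.24, adjusted p = 0.00695), and Fn1 at 125 and 107 CPM against 43.0 and 28.2 (1.41, SE 0.21, adjusted p = 0.00722). Cdh2 and Cdh11 had log2 fold changes of 1.69 and 1.74 with adjusted p of 0.0167 and 0.0190. In the same sums the erythroid markers stood at 29374 and 61264 CPM against 106140 and 168515, and the mesenchyme markers at 1263 and 974 CPM against 371 and 237. Computed doublets were 46 of the 81 Tet-TKO cells of this class (56.8%) and 426 of 2484 WT host cells (17.1%). Without them the sums held 13 and 10 Tet-TKO cells and none of the 4 calls was kept, with log2 fold changes of 3.05 for Snai2 (adjusted p = 0.310), 0.70 for Twist1 (0.736), 1.56 for Vim (0.225) and 0.90 for Fn1 (0.403). Of the erythroid-like cells left out of the sums, the 9 of Tet-TKO library 1 held 4 UMIs of Snai2, 59 of Twist1, 43 of Vim, 33 of Fn1, 8 of Cdh11 and 2 of Cdh2, and the 8 of library 4 held 6 of Fn1, 1 of Cdh2 and 0 of the other 4 genes.

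Cells with both cadherins of the classical switch were counted in the same thinned cells. At least 1 UMI each of Cdh1 and Cdh2 was found in 0.695%, 0.410%, 0.628% and 0.977% of cells in the Tet-TKO libraries and in 0.843% and 0.445% in the WT host libraries, and these overlapped. Without thinning the pooled shares were 3.51% and 2.72%. In notochord-like cells, where both genes are high, 9 of 42 Tet-TKO cells (21.4%, exact 95% interval 10.3–36.8%) and 10 of 56 WT host cells (17.9%, 8.91–30.4%) held both. Epcam and Vim were found together in 8.73%, 6.12%, 3.64% and 3.91% of Tet-TKO cells by library and in 7.63% and 3.40% of WT host cells, again with overlap.

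The other genes of the pathway were read from 4 lists, against the 51.9% of all genes that had the higher level in Tet-TKO cells and the 3.74% and 6.75% that were higher or lower at an adjusted p of 0.05. Of 32 matrix, integrin and effector genes, 25 had the higher level in the whole Tet-TKO fractions, with a median log2 fold change of 0.48, and 8 passed an adjusted p of 0.05, all higher. Tgfb2, a ligand that triggers epithelial-mesenchymal transition, was the one called by edgeR, at 57.3, 47.2, 57.3 and 54.4 CPM against 27.0 and 19.95 (1.12, SE 0.15, adjusted p = 0.00751). Of 10 further transcription factors of the transition, 4 were higher and 1 lower at an adjusted p of 0.05, with a median of 0.35. Prrx1, a homeobox factor of limb and head mesenchyme, was the one called by edgeR, at 30.9, 35.7, 36.5 and 34.2 CPM against 15.2 and 17.0 (1.00, SE 0.12, adjusted p = 0.00456). With the alike Tet-TKO libraries summed into pairs edgeR called 0 genes of all, so neither the Tgfb2 nor the Prrx1 call was kept. Of 30 genes of epithelial junctions and their regulators, 23 had the lower level, with a median of −0.57, and 7 were lower and 2 higher at an adjusted p of 0.05. Of 16 cadherins, protocadherins and catenins, 12 had the higher level, with a median of 0.30, and 3 were higher at 0.05. DESeq2 called more genes in all (1446 against the 558 of edgeR). Of these lists it called 4 matrix and effector genes higher, 2 transcription factors higher and 1 lower, and 1 epithelial junction gene higher and 6 lower. On simulated whole fractions DESeq2 made 29 false calls, against 1 by edgeR. The simulated libraries were independent and had the spread that edgeR estimated, without the alike pairs, so this does not decide between the tools here. Among the epithelial junction genes edgeR called 0, with 4 higher and 11 lower at an unadjusted p under 0.05, where 5626 of the 21075 genes were under it.

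Within classes the medians of these lists were closer to the background than in whole fractions. The pairs of epithelial junction genes and classes had a median log2 fold change of 0.09 over 408 pairs, those of cadherins and catenins 0.18 over 243, those of transcription factors −0.04 over 196 and those of matrix and effector genes 0.24 over 617, where the median over all pairs was 0.01. In the same order the calls were 2 higher and 1 lower, 1 and 1, 3 and 1, and 5 and 3, where 0.242% of all pairs were called higher and 0.342% lower. Tgfb2 rose in surface ectoderm-like cells by 2.04 (adjusted p = 0.00166) and in cluster 6 by 1.24, beside the Twist1 values there. Prrx2, a close relative of Prrx1, rose by 1.16 in haematoendothelial progenitor-like cells. Cldn3, a tight junction claudin, fell by 1.76 in gut-like cells (adjusted p = 0.00651), as did Col1a2, a collagen gene, by 2.46. This class was made of cluster 17 (76.5% of its Tet-TKO and 59.2% of its WT host cells) and cluster 26 (23.5% and 40.8%). Cdh6 fell by 1.48 in lateral plate mesoderm-like cells (adjusted p = 0.00899), Col5a2 by 2.71 in allantois-like cells and Sox9 by 1.63 in cluster 20. Tjp1, a scaffold of tight junctions, rose by 1.65 in blood progenitor-like cells and by 1.49 in cluster 18, a blood cluster led by Rab27b, Myb, Fcer1g and Plek. In endothelium-like cells Itga4, an integrin subunit, rose by 2.41 and Tgfb1, a TGF-beta ligand, fell by 1.10. In erythroid-like cells Prrx2, Tead2, Pcdh7, Col1a2 and Vcan were called higher, with log2 fold changes of 1.96, 1.51, 2.26, 2.16 and 2.17, in the same few cells as above.

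At E7.5 each genotype had 1 library, so values are given without a test. Cdh11 stood at 42.3 CPM in Tet-TKO and 14.4 CPM in WT host cells, Cdh2 at 63.5 and 28.3 CPM and Cldn6 at 40.3 and 116 CPM, with log2 ratios of 1.55, 1.17 and −1.53. These were the 3 of 10 past a 2-fold difference with at least 20 UMIs, where 5.03% of 19099 genes were so higher and 11.9% lower. Twist1 stood at 63.1 and 33.7 CPM, Snai2 at 5.60 and 3.70, Vim at 294 and 156, Fn1 at 146 and 97.6, Zeb2 at 38.9 and 33.3, Epcam at 314 and 416 and Cdh1 at 33.2 and 59.2 CPM. Extraembryonic-like cells were 0.345% of the Tet-TKO and 30.5% of the WT host library. Without them the log2 ratios were 0.98 for Cdh11, 0.61 for Cdh2 and −0.97 for Cldn6, all within 2-fold, and that of Zeb2 turned from 0.23 to −0.34. That of Snai2 went from 0.60 to 0.01, of Fn1 from 0.58 to 0.08, of Twist1 from 0.90 to 0.39 and of Vim from 0.91 to 0.35.

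Within E7.5 classes, Twist1 was past the size rule in 8 of the 18 classes where the rule could be read, and in each of these 8 it was higher in Tet-TKO cells. Over all genes, 4.37% of 204743 pairs of gene and class were so higher and 5.34% lower. In epiblast-like cells Twist1 stood at 19.6 CPM in 607 Tet-TKO cells (286 UMIs) and 4.16 CPM in 203 WT host cells (12 UMIs), a log2 ratio of 2.23 with an exact 95% counting interval of 1.41 to 3.20. In forebrain-like cells it stood at 24.2 CPM (101 cells) and 3.59 CPM (751 cells), a log2 ratio of 2.75 (2.14 to 3.38). NMP and caudal epiblast-like cells held 25.7 and 8.24 CPM, surface ectoderm-like cells 38.8 and 10.8 CPM and nascent mesoderm-like cells 68.8 and 28.1 CPM of Twist1. In ExE ectoderm-like cells, which should lack Twist1, it stood at 14.1 CPM in 13 Tet-TKO cells (4 UMIs) and 3.77 CPM in 1816 WT host cells (118 UMIs), and this class is 1 of the 8 past the rule. In erythroid-like cells, which should lack it too, it stood at 15.6 and 11.3 CPM. The WT host values of epiblast-like and forebrain-like cells were near the WT host value of ExE ectoderm-like cells, and those of NMP and caudal epiblast-like and surface ectoderm-like cells lay between it and that of erythroid-like cells, so these WT host levels cannot be told apart from background. For the Tet-TKO values the exact 95% Poisson intervals were 8.74–25.8 CPM in erythroid-like and 3.85–36.2 CPM in ExE ectoderm-like cells. The Tet-TKO values of epiblast-like, forebrain-like and NMP and caudal epiblast-like cells lay within both, so they cannot be told apart from background either. Those of surface ectoderm-like and nascent mesoderm-like cells lay above both. Where Twist1 was high in WT host cells it was not past the rule, with 192 and 214 CPM in cranial paraxial mesoderm-like and 161 and 129 CPM in allantois-like cells. Its share of cells with a UMI, thinned to 5000, was 23.7% and 11.6% over the whole libraries.

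The epithelial genes of the same epiblast-like cells were close between the libraries, with Epcam at 804 and 844 CPM, Cldn6 at 124 and 129 CPM and Cdh1 at 84.6 and 96.3 CPM. Vim there stood at 49.0 and 40.9 CPM, while Fn1, at 9.85 and 19.1 CPM, and Zeb2, at 8.82 and 16.6 CPM, lay the other way from Twist1 but within 2-fold. In forebrain-like cells Cdh2, the cadherin of the neural plate, lay the other way from Twist1, at 4.37 and 16.6 CPM (log2 ratio −1.92), as did Fn1 at 8.73 and 18.3 CPM. In NMP and caudal epiblast-like cells Cdh2 also lay lower, at 14.0 and 29.6 CPM. These were the 2 classes with Cdh2 past the rule downwards, and 3 were past it upwards. The 3 were erythroid-like cells (11.5 and 3.88 CPM), ExE ectoderm-like cells (14.1 and 3.54) and cluster 27 (368 and 70.5), with 34, 13 and 28 Tet-TKO cells. Cdh11 was past the rule in presomitic mesoderm-like cells, at 50.3 and 21.5 CPM. Cldn6 was past it downwards in 4 of 23 classes, among them mesenchyme-like cells at 1.34 and 6.04 CPM, and upwards in nascent mesoderm-like cells at 11.3 and 5.02 CPM. Cdh1 and Cdh2 were found in the same thinned cell in 1.82% of cells of either library. With 1 library per genotype the counting intervals cover these libraries only.

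**Figure D5:**
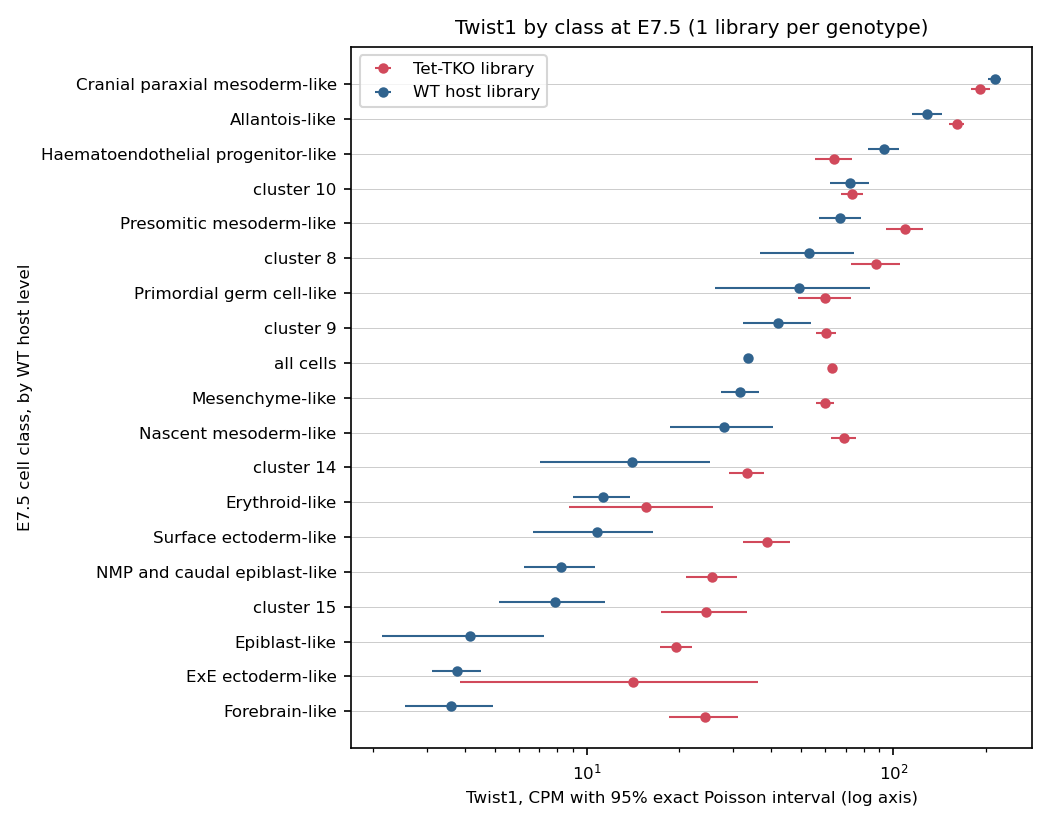
Twist1 in E7.5 classes, ordered by WT host level, with 1 library per genotype. Points are CPM on a log axis and bars are exact 95% Poisson intervals of the counts. Tet-TKO cells lie higher in epiblast-like (19.6 against 4.16 CPM) and forebrain-like cells (24.2 against 3.59 CPM), and the genotypes are close in cranial paraxial mesoderm-like cells (192 against 214 CPM). The 19.6 and 24.2 CPM lie within the interval of Tet-TKO erythroid-like cells, which should lack Twist1.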

How the data were processed

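The authors deposited, for each library, a matrix of UMI counts per gene and cell barcode (Cell Ranger, mm10 with Ensembl annotation and a tdTomato sequence, per the study's methods; version 3.1.0 per the file headers), not normalised. The deposited counts were used as they are. Cells with at least 1500 UMIs, at most 30% mitochondrial and 35% ribosomal UMIs were kept, as in the study. Cells were clustered with scanpy 1.11.5 and leidenalg 0.10.2 (Python 3.11.15) on 2500 variable genes without the members and pathway genes, 50 components, with a mutual nearest neighbour correction between libraries, and resolution 2. Clusters were named from marker lists (at least 3 markers), and the order of merging and the naming thresholds were set after the clusters, but not the members' values, were seen. Computed doublets, the cells of highest Scrublet score at a preset rate of 0.8% per 1000 cells (0.79–7.64% of a library), were left in except in an alternative. At most 28 cell barcodes were shared by any 2 libraries.

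Counts were summed over each library, and over each class of a library that held 10 or more cells, and tested with edgeR 4.0.16 in R 4.3.3 (quasi-likelihood, filterByExpr, TMM, Benjamini-Hochberg over all genes tested in a comparison). Libraries were grouped by GEO's labels, which give no pairing across genotypes. A difference of a class from the other classes was tested in one fit over all class sums with library as a term. On simulated counts with 100 genes changed 4-fold (2 on the log2 scale), edgeR recovered 52 of them in whole fractions, with 1 false call among 21075 genes, and 70 in erythroid-like and 83 in surface ectoderm-like cells. On the same simulated whole fractions DESeq2 recovered 78, with 29 false calls. These simulated libraries were independent, with the spread that edgeR estimated, and did not hold the alike pairs of the Tet-TKO libraries. DESeq2 1.42.0, other filters, thresholds, clusterings and left-out libraries were tried as alternatives. Intervals of counts are exact Poisson and those of shares exact binomial, at 95%.

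The members, gene lists and tests were chosen with earlier results of these data known. Beside the 10 members, the text names, of each pathway list, up to 4 genes called in whole fractions and all genes called in classes. For each member it names the 3 classes of highest WT host level (further classes for contrast) and the 3 genes of highest Pearson r. Member and class pairs that passed an adjusted p of 0.05 only, and further E7.5 values, were chosen after their values were seen. Promoter sequences are from RefSeq, positions of genes from GENCODE M21 (GRCm38). No promoter was at hand for Cdh1, Cdh2, Cdh11, Snai2 and Fn1.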

Additional observations from a re-analysis of the deposited data

Results flagged for a closer look

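A test of whether the genotype effect in one class differed from the mean effect of the other classes (edgeR, one fit over 17065 genes and 29 classes) passed an adjusted p of 0.05 for 13 pairs of a member and a class, where 0.737% of all 494885 such tests passed. The values are log2 differences from the mean effect of the other classes. The fit took its spread from all class sums together, and not from the sums of the named class alone. It also counted the alike Tet-TKO libraries as separate, and no adjusted p with these libraries summed is given here. The adjusted p values below may therefore be too small, and they rank the pairs rather than measure replication.

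Twist1 lay above the other classes in surface ectoderm-like cells (1.18, adjusted p = 0.0022) and in NMP and caudal epiblast-like cells (1.40, 0.0143). It lay below them in cluster 18 (−1.46, 0.0055), lateral plate mesoderm-like (−0.79, 0.0077), pharyngeal mesoderm-like (−0.68, 0.0331) and somitic mesoderm-like cells (−0.72, 0.0398). Apart from cluster 18, the classes below are among those with the most Twist1 in WT host cells.

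Fn1 lay below the other classes in cluster 16 (−1.33, adjusted p = 2.0e-06) and in gut-like cells (−0.77, 0.0213), both endodermal, and above them in erythroid-like cells (1.29, 0.0050). Cdh2 lay above in erythroid-like cells (1.34, 0.0133) and below in surface ectoderm-like cells (−0.79, 0.0273). The erythroid-like values rest on 64 Tet-TKO cells in 2 libraries.

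Cdh11 lay below in somitic mesoderm-like cells (−0.86, 0.0149) and Zeb2 in cluster 18 (−0.61, 0.0044). Taken as plain differences of the fitted log2 fold changes, with no test, these 13 values kept their direction when any 1 library was left out, and 3 moved by over 1.5 times. Fn1 in gut-like cells went from −0.72 to −0.39 without Tet-TKO library 3. Without WT host library 2, Cdh2 in surface ectoderm-like cells went from −0.81 to −0.48 and Twist1 in cluster 18 from −1.53 to −0.95. On simulated counts changed in surface ectoderm-like cells only, the test recovered 69 of 100 differences of 2 on the log2 scale. It recovered 22 of 100 differences of 1, with 4 false calls among 3000 genes. The simulated sums were independent and shared 1 fixed spread, unlike the alike Tet-TKO libraries. Other classes were not simulated, and a pair that did not pass is not shown to behave like the rest. In the 22 groups of 4 libraries examined for a library far from the others, none was found, where chance gives about 1 in 20 for independent libraries. The Tet-TKO libraries fell into 2 alike pairs, which can hide a far library, so finding none says little.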

How the results depend on the processing

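The counts of calls depended on the settings. Values within classes were followed only for the pairs with an adjusted p under 0.05 in the main edgeR fit. Differences between classes were followed only where they passed 0.05. A steady direction of these was thus in part fixed by that choice. Of the members' values in whole fractions, 159 stayed on their side of the threshold, 8 passed it and 3 no longer did. Of the values followed within classes the numbers were 147, 28 and 28. Of the differences between classes, 176 moved by less than their SE and 22 by more. The count of members called in whole fractions (1) became 2 with DESeq2, 3 with a replicate block, 6 at an adjusted p of 0.05 with no minimum fold, and 0 to 1 with a library left out. With the alike Tet-TKO libraries summed into pairs it was 0 by edgeR, where 7 members and 3903 genes had an unadjusted p under 0.05. The count of all genes called (558) became 1446 with DESeq2, 949 with no filter on low counts, 1762 with a replicate block, 0 with libraries summed, 308 without erythroid-like and extraembryonic-like cells, 2212 at an adjusted p of 0.05, and 109 to 230 with a library left out. Within classes the 6 member calls became 12 with DESeq2, 24 with no filter, 22 with a replicate block, 2 with cells matched on tdTomato, 1 with 30 cells per sum, 2 with a minimum of 30 cells, 12 at an adjusted p of 0.05, and 1 (without Tet-TKO library 2) to 7 with a library left out. The 1661 calls over all genes and classes became 3207, 7542 and 7355 with DESeq2, no filter and a replicate block, 505 with 30 cells per sum, 3077 at resolution 1, 3249 with all variable genes, 4592 at an adjusted p of 0.05 and 508 to 1598 with a library left out. The causes were not tested. The Twist1 adjusted p in midbrain and hindbrain-like cells was 0.259 with 30 cells per sum and 0.0112 with all variable genes. Equal numbers were not taken to pair the libraries, since the labels name no shared batch and deviations from the group means correlated at 0.45 for the libraries numbered 1 and −0.21 for those numbered 2, and the block used 4 libraries only. Under the replicate block Twist1 (1.11, adjusted p = 1.73e-05) and Cldn6 (−1.14, 0.000733) were called in whole fractions, and Cldn6 with DESeq2 (−1.22, 0.00241). At E7.5 the 3 members past the size rule became 0, and Zeb2 turned to −0.34, without extraembryonic-like cells. The share of WT host cells with Cdh1 and Cdh2 (0.637%) was 2.72% without thinning and 0.281% at 3000 UMIs. Few Tet-TKO erythroid-like, extraembryonic-like and notochord-like cells limit what could be seen there.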
